A study of Mus musculus with 10 samples.

Results

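The comparison of cocaine self-administration with its yoked control rests on 6 of the 10 libraries of a study of mouse striatum, 3 titled as cocaine self-administration and 3 as yoked control. Every gene row of these libraries was taken as a member, and rows that name no gene were dropped. Each library is a pull-down of ribosome-bound RNA by translating ribosome affinity purification (TRAP), from the whole striatum of adult mice of the Drd1-TRAP CP73 line. In this line a ribosomal protein fused to EGFP is expressed under the Drd1 promoter, so antibodies against EGFP recover polysomes of cells that express the D1 dopamine receptor. Both groups carried the same transgene, on a strain background labelled FVB/N-Swiss Webster x C57BL/6 with at least 9 generations of C57BL/6. The cocaine mice belonged to a short access, intravenous self-administration design. What was delivered to the yoked mice, when tissue was taken and whether each library is a separate animal are not stated in the labels. The p-values therefore measure only the spread between these libraries, which may be technical. The other 4 libraries are 3 pull-downs from saline self-administration, used for the shared estimate of spread and as a reference level, and 1 input. Libraries are named by group and number, such as yoked 2, and values of a group are given in the order of the numbers 1, 2 and 3, cocaine libraries first and yoked libraries after "against". Sequencing was on lane 1 for the cocaine group, lane 2 for the yoked group and lane 3 for the saline group. A lane effect and a group effect cannot be told apart, also where saline libraries serve as a reference level.

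D1 medium spiny neurons form the direct pathway of the basal ganglia. They receive cortical glutamate and midbrain dopamine, signal through Gs/olf and cAMP, and release GABA with substance P and dynorphin. Cocaine blocks dopamine reuptake, and D1 receptor signalling is known to induce immediate early genes in these cells. A yoked control is in general meant to separate responding for a drug from its delivery.

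The cocaine libraries held 32.2 to 33.4 and the yoked libraries 38.6 to 45.2 times 1e+06 gene counts (exact permutation test, two-sided, p = 0.1, the smallest that 3 against 3 allows). The detection floor of 3 counts lay between 0.0663 and 0.0933 CPM (counts per 1e+06, scaled by edgeR's TMM factors where levels are printed), for counting error only. Within a group, counts of any pair of libraries had a chi-square of 26.4 to 169 per degree of freedom, far beyond sampling noise, and each library was counted as a replicate. The ribosomal RNA gene Rn45s took 11.4%, 16.9% and 20.5% of the gene counts in cocaine 1, 2 and 3 and 14.7%, 15.2% and 15.1% in yoked 1, 2 and 3 (exact permutation test, two-sided, p = 0.7).

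No gene passed the test between cocaine self-administration and the yoked control, which does not show that none changed. Of 32531 gene rows, 14680 passed the filter on low counts, and 0 of them (0%) were called by the quasi-likelihood test of edgeR (Benjamini-Hochberg adjusted p, threshold 0.05). The smallest adjusted p was 0.974. By edgeR, 379 genes (2.58%) had an unadjusted p under 0.05, 200 higher (1.36%) and 179 lower (1.22%) in cocaine libraries. DESeq2 called 0 genes with 431 at an unadjusted p under 0.05, and limma-voom called 0 with 434. The median standard error of a log2 fold change was 0.21. For 10620 genes (72.3%) the 95% confidence interval of the difference stayed within 2-fold in either direction, and for 6298 (42.9%) within 1.5-fold. For the other genes changes beyond these bounds lay within the interval. Across all tested genes the median log2 fold change was -0.03, and 6683 (45.5%) were above 0.

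**Figure D1:**
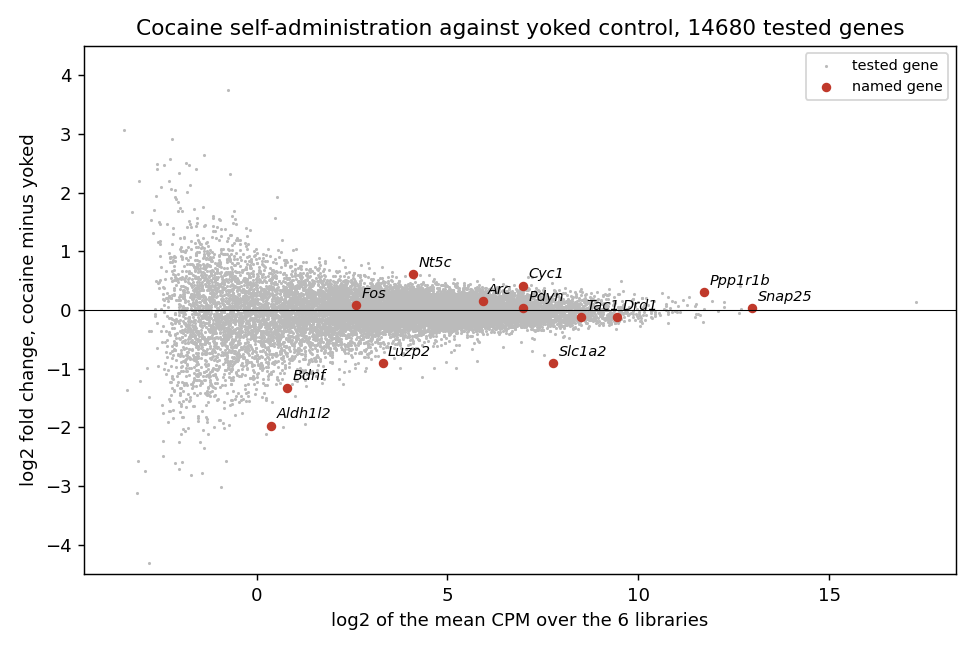
Log2 fold change of cocaine minus yoked libraries (vertical axis) against the log2 mean CPM over the 6 libraries (horizontal axis) for each tested gene, with some genes named in the text in red. None of the 14680 genes passed the test, and D1 neuron genes such as Drd1, Tac1 and Pdyn lie near 0.

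Genes of the tagged cell class were compared first, between the groups only and not against the input. Drd1, the D1 receptor gene, was at 693, 605 and 715 CPM in cocaine 1, 2 and 3 and 634, 590.1 and 970.5 CPM in yoked 1, 2 and 3, a log2 fold change of -0.12 ± 0.18 (SE). Tac1, the precursor of substance P, was at 312, 285 and 435 CPM in cocaine and 297, 248 and 579.6 CPM in yoked libraries, a log2 fold change of -0.12 ± 0.30 (SE). The groups overlapped for both genes, and yoked 3 was the highest library. Pdyn, which encodes prodynorphin, was at 121, 118 and 143 CPM in cocaine and 116, 102 and 154 CPM in yoked libraries. Of 10 tested D1 markers, 4 had higher values in cocaine libraries (median log2 fold change -0.02). Yoked 3 was the highest of the 6 libraries for 7 of the 10, and for 4495 of all 14680 tested genes (30.6%). Without yoked 3 the median of the D1 markers was 0.20. The 95% confidence interval of the Drd1 log2 fold change ran from -0.51 to 0.26.

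Dopamine and cAMP signalling genes had values on both sides of 0. The 44 tested members had a median log2 fold change of -0.02, with 19 higher and 25 lower and 0 called. Ppp1r1b encodes DARPP-32, the phosphatase inhibitor through which dopamine signals converge. It was at 3742, 4018 and 3500.2 CPM in cocaine and 3581, 3292 and 2259 CPM in yoked libraries, a log2 fold change of 0.30 ± 0.17 (SE), with yoked 3 the lowest. Gnal, the olfactory-type G protein subunit that couples D1 receptors to adenylyl cyclase, was at 2641, 1988 and 1866 against 2246, 2153 and 2223 CPM. Log2 fold changes were -0.09 for Adcy5, the main striatal adenylyl cyclase, -0.09 for the phosphodiesterase Pde10a and 0.03 for Rgs9, a regulator of G protein signalling. The Ras-ERK and calcium-dependent kinase list had a median of 0.01 over 35 genes. Its member Cdk5, a kinase that phosphorylates DARPP-32, was at 83.3, 106 and 98.3 against 83.6, 80.1 and 70.6 CPM (log2 fold change 0.30 ± 0.14, SE, edgeR unadjusted p = 0.046), with cocaine 1 inside the yoked range.

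The rule for naming genes took the 12 genes on each side with the smallest unadjusted p, a mean count of at least 50 and groups that do not overlap, which is the case for 760 of 12104 genes of that depth (6.28%), 397 higher (3.28%) and 363 lower (3%). None of the 24 passed the adjusted test, and since they were picked for it, their separation is a description. Nt5c, a cytosolic nucleotidase that removes phosphate from nucleoside monophosphates, was at 17.8, 23.4 and 20.8 CPM in cocaine and 13.0, 13.5 and 14.0 CPM in yoked libraries. Its log2 fold change was 0.61 ± 0.16 (SE), and the saline libraries, at 13.6, 14.4 and 13.0 CPM, lay with the yoked ones. Lypla2, an acyl-protein thioesterase, was at 25.4, 29.4 and 28.0 against 22.2, 18.6 and 14.2 CPM, and Lrrc73 at 40.8, 45.1 and 41.7 against 31.3, 33.5 and 28.9 CPM. All cocaine values of these 3 genes lay above all yoked values, and the log2 fold changes between the groups were 0.61, 0.59 and 0.45.

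Of the other higher genes, Cyc1 and Ndufv3 belong to the respiratory lists. Cyc1, cytochrome c1 of complex III, was at 127, 154 and 152 CPM in cocaine, 109, 100.4 and 115 CPM in yoked and 113, 108 and 98.6 CPM in saline libraries, a log2 fold change of 0.42 ± 0.13 (SE). Ndufv3, a complex I subunit, was at 111, 162 and 137 CPM in cocaine and 107, 101 and 98.2 CPM in yoked libraries, with cocaine 1 close to yoked 1. Iscu, the scaffold on which iron-sulfur clusters are built, was at 39.0, 47.0 and 43.8 against 35.1, 30.4 and 31.7 CPM. Coasy, which encodes coenzyme A synthase, was at 14.3, 15.8 and 15.1 against 11.8, 10.7 and 8.08 CPM. The saline libraries of Coasy, at 13.6, 15.9 and 11.1 CPM, overlapped the cocaine ones, whereas those of Cyc1 and Iscu did not. Dtnbp1, dysbindin of the BLOC-1 complex, had a log2 fold change of 0.37 ± 0.12 (SE), and Vps25 of the ESCRT-II complex 0.36 ± 0.12 (SE). Get4, of the tail-anchored protein insertion pathway, was at 0.65 ± 0.21 (SE), Fam89b at 0.58 ± 0.19 (SE) and the ciliary gene Nphp4 at 0.81 ± 0.26 (SE). Nphp4 was at 9.29, 9.97 and 9.58 CPM in cocaine, 6.95, 6.37 and 3.14 CPM in yoked and 9.98, 8.66 and 10.8 CPM in saline libraries, so the yoked libraries stood apart from both others.

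Among the 12 genes with lower values in cocaine libraries, the log2 fold change farthest from 0 was that of Aldh1l2, the mitochondrial formyltetrahydrofolate dehydrogenase of folate metabolism. It was at 0.893, 0.367 and 0.326 CPM in cocaine and 1.78, 2.37 and 2.10 CPM in yoked libraries, a log2 fold change of -1.97 ± 0.54 (SE), with saline libraries spread over both ranges at 0.534, 1.86 and 0.826 CPM. Luzp2 was at 6.76, 8.04 and 5.77 against 10.2, 14.5 and 13.9 CPM. Entpd5, a nucleoside diphosphatase of the endoplasmic reticulum, was at 2.41, 3.43 and 2.35 against 4.20, 5.25 and 5.75 CPM. Scg3, a granin of dense-core vesicles, was at 32.5, 21.4 and 27.6 CPM in cocaine and 35.3, 43.6 and 38.1 CPM in yoked libraries (log2 fold change -0.52 ± 0.18, SE). These 4 genes were lowest in cocaine libraries and highest in yoked 2 or yoked 3. Log2 fold changes of the others were -0.78 for Dnajc1, an endoplasmic reticulum cochaperone, -0.74 for angiomotin (Amot), -0.79 for Atad5, -0.79 for the guanine exchange factor Dock11, -0.81 for Cwf19l2, -0.68 for Fam199x, -0.53 for the transporter gene Slc37a3 and -0.52 for the progestin receptor gene Paqr8. The smallest adjusted p that any of the 24 reached in 17 alternative analyses was 0.727.

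**Figure D2:**
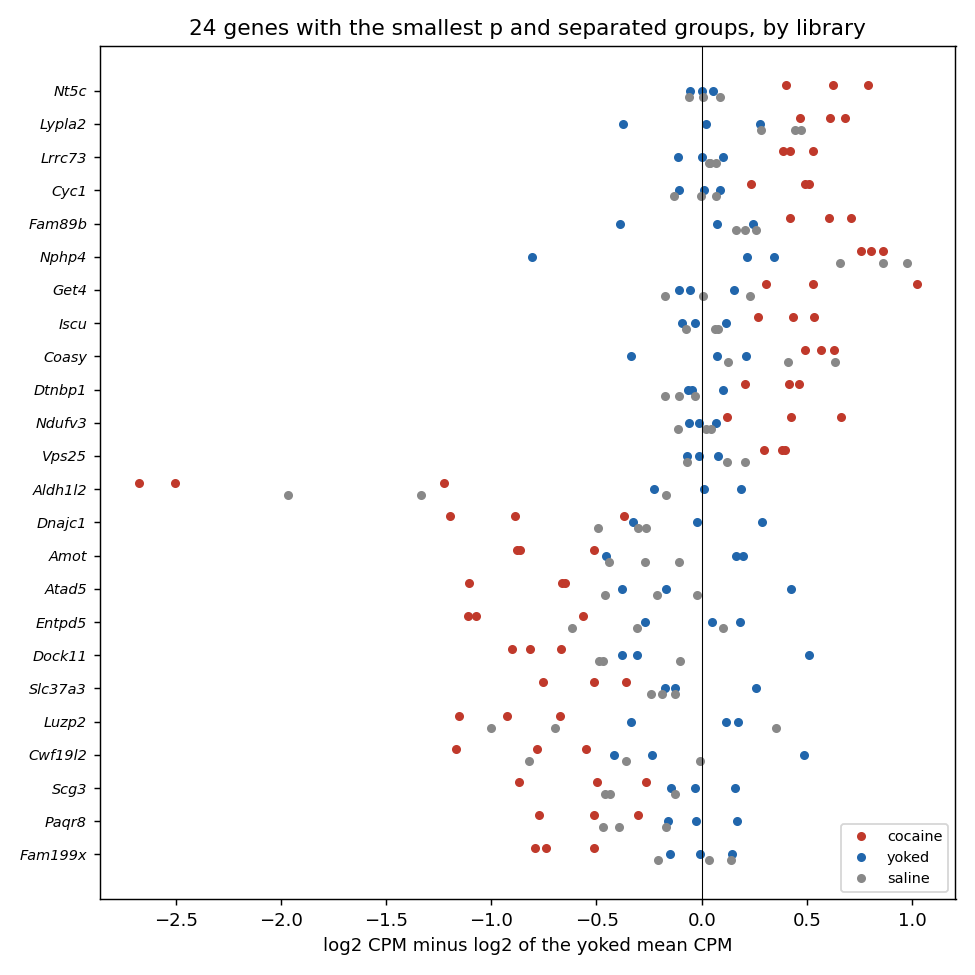
Level in each library of the 24 genes with the smallest unadjusted p and separated groups, as log2 CPM minus the log2 of the yoked mean CPM (horizontal axis), with cocaine in red, yoked in blue and saline in grey. The red points lie to 1 side of the blue points in each row because the genes were chosen so, while the grey points lie with either group or between them.

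Of the 12 higher genes, 8 had a promoter in the RefSeq table used here (GRCm38.p6). The promoters of Nt5c and Lypla2 are shown because these 2 of the 8 hold the letters CCGGAAG on either strand within 250 bases before a transcript start of the table, the core of the sites that ETS factors bind. The motif and the 2 promoters were chosen after the sequences were seen, other motifs having been looked at too. The Nt5c promoter is at chr11:115491815-115492064 and that of Lypla2 at chr4:135972595-135972844, both on the minus strand, printed 5′ to 3′ with the motif or its reverse complement CTTCCGG in capitals. The Nt5c window lies before an internal start and wholly within the span of the gene in that annotation, chr11:115490420-115492070.
Nt5c: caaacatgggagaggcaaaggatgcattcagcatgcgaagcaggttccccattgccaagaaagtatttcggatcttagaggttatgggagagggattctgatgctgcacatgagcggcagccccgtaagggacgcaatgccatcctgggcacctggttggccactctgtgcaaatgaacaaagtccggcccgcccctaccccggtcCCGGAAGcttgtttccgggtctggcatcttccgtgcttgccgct
Lypla2: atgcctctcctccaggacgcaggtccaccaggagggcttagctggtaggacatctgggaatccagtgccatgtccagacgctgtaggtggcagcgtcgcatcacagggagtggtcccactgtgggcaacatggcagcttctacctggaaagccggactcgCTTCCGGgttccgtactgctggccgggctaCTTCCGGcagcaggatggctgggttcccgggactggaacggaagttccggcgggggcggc
The same letters occurred in a promoter window of that length for 2115 of the 27025 genes in the table (7.83%) and for 1541 of 10553 tested genes (14.6%). Of the lower genes, 1 of 11 with a promoter held them, Dnajc1. Among lists described below they occurred for 18 of 57 cytosolic ribosomal protein genes, 12 of 37 mitochondrial ribosomal protein genes, 9 of 30 genes of respiratory complexes II to V and 3 of 33 of complex I. The CCGG within the motif reads the same on both strands, so matches on the 2 strands can overlap. A match is a description of the letters in this window.

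Genes of respiration had mostly higher values in cocaine libraries, none of them past the test. Of 37 complex I subunit genes, 32 were higher, where 45.5% of all tested genes were, with a median log2 fold change of 0.12. Ndufb7, an accessory subunit, was at 78.2, 109.8 and 115 CPM in cocaine and 77.8, 75.8 and 67.6 CPM in yoked libraries, a log2 fold change of 0.45 ± 0.16 (SE). It was among 6 of the 37 with all cocaine values above all yoked values. Of all tested genes 6.74% had groups that did not overlap, 3.43% with cocaine above. Ndufs1, the largest complex I subunit, was at 78.8, 74.6 and 90.4 against 77.3, 84.0 and 142 CPM, the lowest log2 fold change of the list at -0.31. Of 39 genes of complexes II to V and cytochrome c, 28 were higher (median 0.13) and 4 were separated upwards. Cox8a, a complex IV subunit, was at 620.0, 684 and 714 CPM in cocaine and 556, 434 and 591 CPM in yoked libraries (log2 fold change 0.35 ± 0.14, SE), and Atp5b, the catalytic ATP synthase subunit, at 2030.2, 2033 and 2123 against 2073, 1951 and 2284 CPM. None of these members was called. Yoked 2 was the lowest library for 25 of the 37 and 31 of the 39 genes, and without it the medians were 0.01 and 0.06. Without yoked 3 they were 0.29 and 0.27. Without cocaine 2 both were 0.04.

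Cytosolic ribosomal protein genes were higher in cocaine for 71 of 78 tested members, with a median log2 fold change of 0.20 and 0 called. Their mean log2 CPM was 3.40, 3.93 and 3.70 in cocaine 1, 2 and 3 and 3.48, 3.49 and 3.48 in yoked 1, 2 and 3. Cocaine 1 thus lay below the yoked libraries and the other cocaine libraries above them. Cocaine 2 was the highest of the 6 for 59 of the 78 genes, and the median was 0.07 without it and 0.36 without cocaine 1. Rpl10a encodes the protein that carries the tag, so reads of the gene and of the transgene cannot be told apart. It was at 5.69, 8.90 and 8.47 CPM in cocaine and 6.57, 5.75 and 5.54 CPM in yoked libraries. Ribosomal protein genes have many near-identical copies, among which reads may have been split or dropped. Of 45 mitochondrial ribosomal protein genes, 37 were higher (median 0.19), with yoked 2 the lowest library for 25, and the median was 0.10 without yoked 2 and 0.11 without cocaine 2. Translation factors, by comparison, had 22 of 39 higher (median 0.03), and proteasome subunits 18 of 31 (median 0.01). Eef2, the elongation factor that moves the ribosome along, was at 305, 333 and 336 against 337, 408 and 228 CPM, and Psmb6, a catalytic proteasome subunit, at 114, 144 and 132 against 108, 104 and 106 CPM (log2 fold change 0.29 ± 0.13, SE).

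Membrane excitability genes had mostly lower values in cocaine libraries. Of 42 voltage-gated ion channel genes, 34 were lower in cocaine libraries, with a median of -0.14 and 0 called. Cacna1e, the R-type calcium channel, was at 256, 162 and 257 CPM in cocaine and 242, 336 and 338 CPM in yoked libraries, a log2 fold change of -0.44 ± 0.22 (SE). Cocaine 2 was the lowest of the 6 libraries for 25 of the 42 genes, and without it the median was -0.03. GABA genes were lower for 16 of 21 (median -0.17, and -0.01 without yoked 3). Gad1, a GABA-synthesising enzyme, was at 228, 229.7 and 261 against 256, 264 and 351 CPM (log2 fold change -0.28 ± 0.14, SE), while Gabrd, the delta subunit of extrasynaptic receptors, was at 58.9, 58.5 and 86.1 against 55.3, 48.6 and 60.6 CPM (log2 fold change 0.31 ± 0.18, SE). Glutamate receptor genes were lower for 18 of 28 (median -0.12, and -0.03 without cocaine 2). Gria2, the AMPA receptor subunit that limits calcium entry, was at 631, 515 and 571 CPM in cocaine and 568, 594 and 871 CPM in yoked libraries, with yoked 3 the highest. Postsynaptic scaffolds (13 of 28 higher, median -0.03) and synaptic vesicle genes (22 of 43 higher, median 0.02) stood close to the median of all genes. Homer2, a scaffold of group I glutamate receptors, was at 8.22, 4.53 and 6.75 CPM in cocaine and 10.4, 8.30 and 9.32 CPM in yoked libraries (log2 fold change -0.52 ± 0.26, SE), with separated groups, as 3.32% of all tested genes were in this direction.

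Gene length went with these differences. Across 13933 genes placed in the RefSeq table, which do not count as replicates, Spearman's rho between the log2 fold change and the genomic span of the gene was -0.29. The tenth with the shortest genes (median 2.74 kb) had a median of 0.14 with 69.4% higher, and the tenth with the longest (median 243 kb) had -0.11 with 25.7% higher. The rho was -0.19 without cocaine 2, -0.19 without yoked 2 and -0.34 without cocaine 1. Taken library by library against the mean of the other 5, the deviation had a rho with span of 0.21, -0.38 and -0.22 in cocaine 1, 2 and 3 and of 0.02, 0.27 and 0.09 in yoked 1, 2 and 3. The part of span in the differences of the lists above was not tested.

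Activity-regulated genes differed more between the yoked libraries than between the groups. Fos, the immediate early transcription factor, was at 2.53, 6.39 and 9.88 CPM in cocaine and 2.57, 11.0 and 4.04 CPM in yoked libraries. Arc, a regulator of AMPA receptor endocytosis, was at 50.6, 69.5 and 71.5 against 36.6, 106 and 29.3 CPM. Nr4a1, an orphan nuclear receptor, was at 55.4, 70.9 and 98.1 against 39.5, 143 and 33.8 CPM. Yoked 2 was the highest and yoked 1 or yoked 3 the lowest of the yoked libraries for all 3, with log2 fold changes of 0.09 ± 0.63 (SE), 0.16 ± 0.42 (SE) and 0.05 ± 0.53 (SE). Egr1 was at 825, 850.4 and 708 CPM in cocaine and 679, 1087 and 479 CPM in yoked libraries, and Junb, an AP-1 subunit, at 23.0, 36.2 and 39.0 against 23.1, 43.2 and 16.3 CPM. Egr3 was at 476, 469.9 and 381 against 473, 458 and 420.3 CPM and Fosb at 22.9, 27.9 and 18.5 against 27.5, 28.9 and 17.2 CPM, without that peak in yoked 2 for Egr3. Over the 26 tested genes of the list, 13 were higher and 13 lower with a median of 0.02, and 0 were called. Yoked 2 was the highest library for 14 of the 26 (of all tested genes, 2938 of 14680), and without yoked 2 the median was 0.34. It was also the lowest library for 5 of the 26 (of all tested genes, 2665 of 14680).

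Some genes ran the opposite way across the yoked libraries, and the levels printed here are of genes lowest in yoked 2. They are not a set apart, since Bdnf also belongs to the activity-regulated list. Nr4a2, an orphan nuclear receptor, was at 28.6, 15.7 and 41.2 CPM in cocaine and 29.3, 1.51 and 55.6 CPM in yoked libraries. Bdnf, the neurotrophin that striatal neurons receive mostly from cortex, was at 0.923, 0.428 and 1.63 against 2.09, 0.205 and 5.15 CPM, a log2 fold change of -1.32 ± 0.91 (SE). The peptide gene Cck was at 44.9, 49.2 and 84.2 against 58.8, 13.0 and 87.9 CPM. Yoked 2 held the lowest and yoked 3 the highest value of all 3 genes. Slc17a7, the vesicular glutamate transporter of cortical neurons, was at 26.1, 34.6 and 54.3 CPM in cocaine and 48.3, 9.10 and 54.7 CPM in yoked libraries. Tbr1, a cortical transcription factor, was at 14.3, 12.5 and 18.8 against 17.2, 3.88 and 18.7 CPM. Yoked 2 was the lowest library for 6 of the 10 tested cortical glutamatergic markers and the highest for 1. Of the 10, 5 were higher and 5 lower in cocaine libraries (median log2 fold change -7.7e-04). Summed over all 12 markers of the list, the level was 87.7, 91.8 and 125 CPM in cocaine and 126, 46.1 and 137 CPM in yoked libraries. In saline 1, 2 and 3 the sum was 38.1, 92.8 and 96.2 CPM, so a low level was not particular to yoked 2. Nr4a2 and Nrn1 were among the 6 genes with the largest spread within groups at a mean count of at least 200, as were the glial genes Olig1, Mag and Ttyh2 and the clone AA465934.

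**Figure D3:**
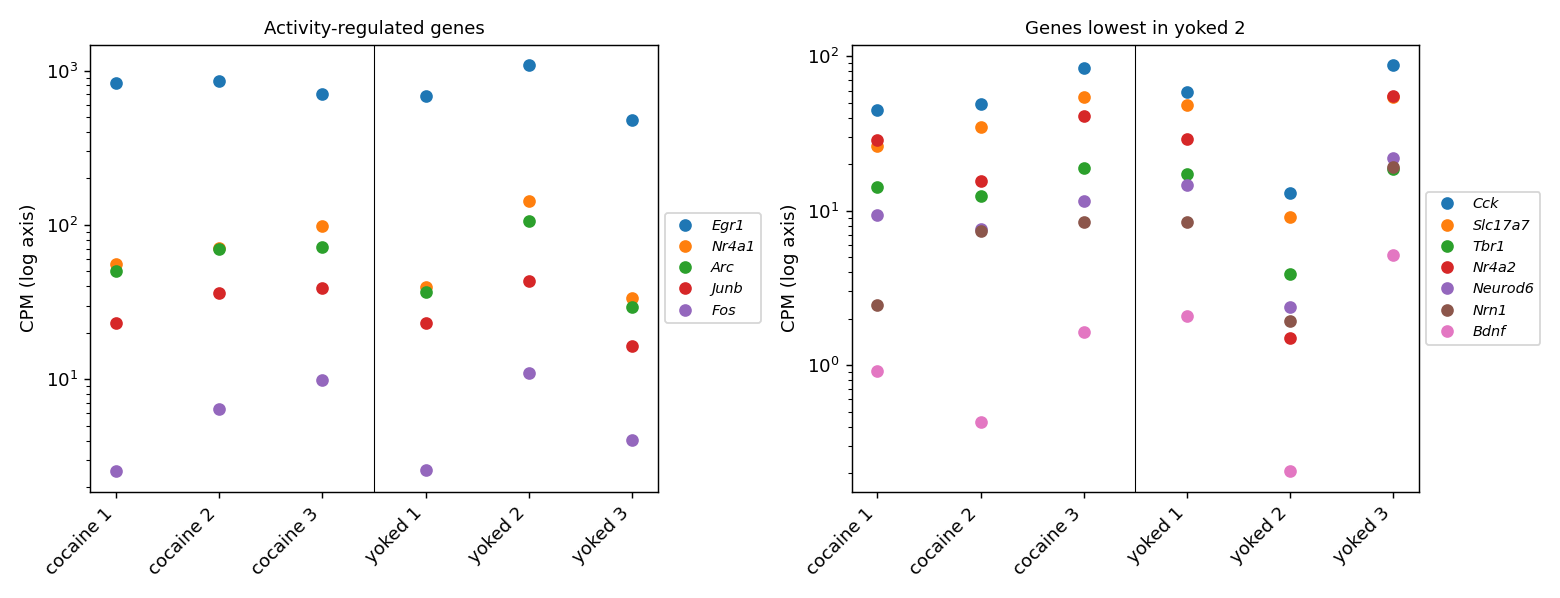
CPM (log axis) of activity-regulated genes and of genes lowest in yoked 2, one point for each library, with cocaine libraries left and yoked libraries right of the line. Bdnf, on the right panel, also belongs to the activity-regulated list. Yoked 2 is the highest yoked library on the left panel and the lowest on the right panel, with the cocaine libraries between or near them.

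Markers of other cell types differed mostly between libraries of the same group. All 16 astrocyte markers had lower values in cocaine libraries (median -0.51), yet yoked 2 was the highest library for 16 of 16. Slc1a2, the astrocyte glutamate transporter, was at 204, 159 and 93.2 CPM in cocaine and 208, 535 and 113 CPM in yoked libraries, a log2 fold change of -0.91 ± 0.60 (SE). Without yoked 2 the astrocyte median was 0.15, and without yoked 3 it was -0.90. Oligodendrocyte markers were lower for 13 of 13 (median -0.55, and 0.16 without yoked 2). Precursor markers were lower for 8 of 8 (median -0.75, and 0.17 without yoked 2) and microglial markers for 12 of 13 (-0.50, and 0.04). Interneuron markers were lower for 11 of 14 (-0.68, and 0.09 without yoked 2). Summed levels were 567, 525 and 309.7 CPM in cocaine and 618, 1299 and 298 CPM in yoked libraries for astrocyte markers, 569.6, 519 and 277 against 579, 1159.7 and 241 CPM for oligodendrocyte markers and 19.2, 17.9 and 10.7 against 22.8, 38.3 and 9.55 CPM for microglial markers. In saline 1, 2 and 3 the sums were 435, 754 and 285 CPM for astrocyte markers and 445, 756 and 282 CPM for oligodendrocyte markers. For microglial markers they were 15.8, 21.6 and 9.3 CPM. These sums were thus highest in number 2 of the yoked and saline groups, but not of the cocaine group. None of the tested markers was at 0 in all 6 libraries, an outcome that the filter on low counts makes likely beforehand. In these pull-downs, fewer cells of a type, less RNA per cell and less carry-over of RNA outside tagged ribosomes cannot be told apart.

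Markers of D2 medium spiny neurons, the cells of the indirect pathway, also differed mostly between the yoked libraries. Drd2 was at 30.5, 27.8 and 17.9 CPM in cocaine and 32.7, 58.9 and 11.6 CPM in yoked libraries, and Adora2a, the adenosine receptor that opposes D2 signalling, at 27.1, 39.4 and 31.8 against 32.0, 75.4 and 13.3 CPM. Penk, the enkephalin precursor, was at 195, 185 and 166 against 200.4, 321 and 179 CPM. All 11 tested markers had lower values in cocaine libraries (median -0.30), yoked 2 was the highest library for 9, and without it the median was 0.16. Their summed level was 306, 302 and 266 CPM in cocaine and 321, 541 and 252 CPM in yoked libraries. In saline 1, 2 and 3 it was 268, 389 and 178 CPM, also highest in number 2. Malat1, a noncoding RNA held in the nucleus, was at 168, 122 and 119 CPM in cocaine and 122, 385 and 185 CPM in yoked libraries (log2 fold change -0.76 ± 0.34, SE, edgeR unadjusted p = 0.048), again highest in yoked 2. Markers shared by both medium spiny neuron classes had a median of 0.02, with 9 of 16 higher. The part of these other cell types and of nuclear RNA in the differences of the other lists was not tested.

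**Figure D4:**
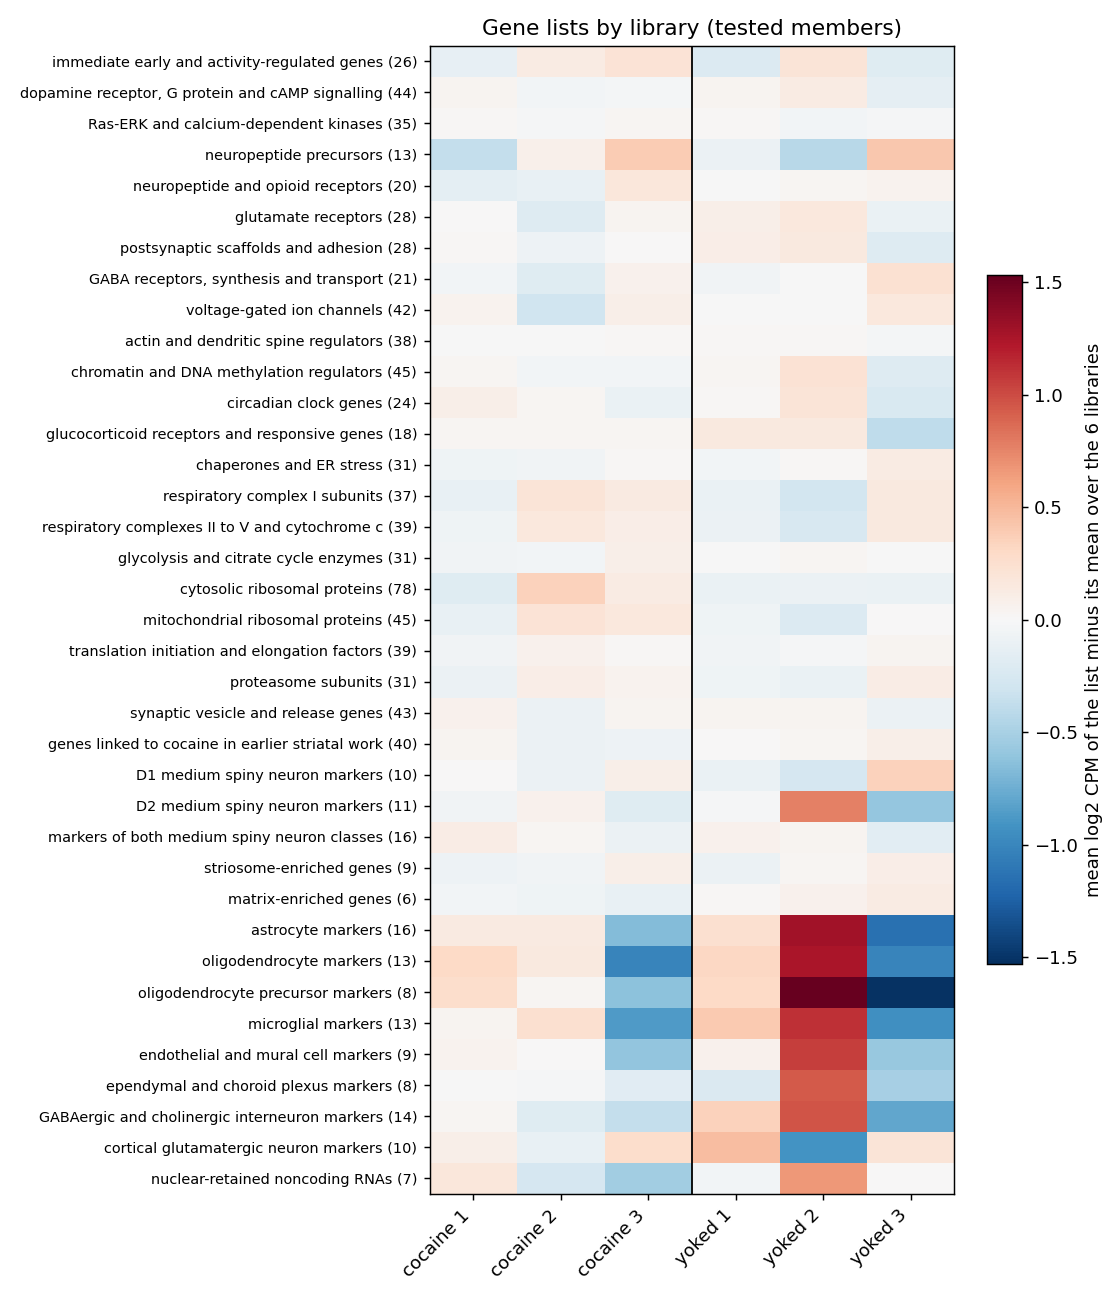
Mean log2 CPM of each gene list in each library minus its mean over the 6 libraries (color scale), with the number of tested genes in parentheses and cocaine libraries left of the line. Glial, D2 and interneuron marker lists are highest in yoked 2 and lowest or near lowest in yoked 3, while signalling and synaptic lists differ little.

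Opioid and other peptide systems showed no called gene. Of 20 neuropeptide and opioid receptor genes 14 were lower (median -0.04). Oprk1, the kappa receptor at which dynorphin acts, was at 34.6, 34.0 and 42.7 CPM in cocaine and 34.4, 34.2 and 67.4 CPM in yoked libraries, highest in yoked 3. Crhr1, a receptor of corticotropin-releasing hormone, was at 1.52, 2.20 and 2.44 against 1.35, 1.14 and 0.623 CPM (log2 fold change 0.98 ± 0.45, SE), with separated groups at a low level. Glucocorticoid-responsive genes had a median of 0.02 with 10 of 18 higher, and the glucocorticoid-induced gene Fkbp5 was at 33.6, 36.5 and 35.9 against 39.2, 36.8 and 28.7 CPM. Circadian genes had a median of -0.02 with 11 of 24 higher. Dbp, a clock output transcription factor, was at 28.7, 30.3 and 29.8 CPM in cocaine and 27.6, 26.6 and 14.7 CPM in yoked libraries (log2 fold change 0.37 ± 0.22, SE), separated with yoked 3 the lowest. Ciart, a repressor of the clock, was at 20.2, 13.1 and 15.9 against 15.9, 16.5 and 14.1 CPM, and both groups lay above the saline libraries at 10.6, 8.58 and 9.39 CPM. Chaperone and endoplasmic reticulum stress genes were lower for 23 of 31 (median -0.08). Yoked 3 was the highest library for 22 of the 31 (of all tested genes, for 30.6%), and without it the median was 0.016. The constitutive chaperone gene Hspa8 was at 117, 129 and 128 against 139.9, 147 and 148 CPM (log2 fold change -0.22 ± 0.12, SE). Chromatin regulators were lower for 32 of 45 (median -0.08, and 0.06 without yoked 2). Hdac5, a class II histone deacetylase, was at 115, 118 and 122 CPM in cocaine and 114, 119 and 58.2 CPM in yoked libraries, level but for yoked 3. Genes linked to cocaine in earlier striatal work were lower for 29 of 40, with a median of -0.10 and 0 called. Gh, the growth hormone gene, was at 3.21, 0.0306 and 0.0326 CPM in cocaine and 0.255, 0 and 0 CPM in yoked libraries, and at 322, 1.08 and 1.13 CPM in saline libraries, so that it was under the detection floor in all of these but cocaine 1, yoked 1 and the saline libraries.

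The libraries did not group by condition. The closest pair was cocaine 1 and yoked 1, with a median absolute log2 difference of 0.14 over 12104 genes and 103 genes beyond 2-fold. Pairs of cocaine libraries differed by 0.22, and pairs of yoked libraries by 0.17 (1 and 2), 0.37 (1 and 3) and 0.41 (2 and 3). Yoked 2 and 3 were the most distant pair of all, with 1412 genes (11.7%) beyond 2-fold. Against the mean of the other 5, 425 genes were beyond 2-fold in yoked 2, 345 of them higher, and 706 in yoked 3, 449 of them lower. In cocaine 1 there were 54 such genes and in yoked 1 there were 52. The first principal component, with 49.4% of the variance, set yoked 3 and yoked 2 at its opposite ends, with the cocaine libraries between them. The standard deviation was larger in the yoked than in the cocaine group for 63.5% of genes. Leaving out yoked 3 gave 0 called genes with 1025 at an unadjusted p under 0.05, and leaving out yoked 2 gave 0 with 532.

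**Figure D5:**
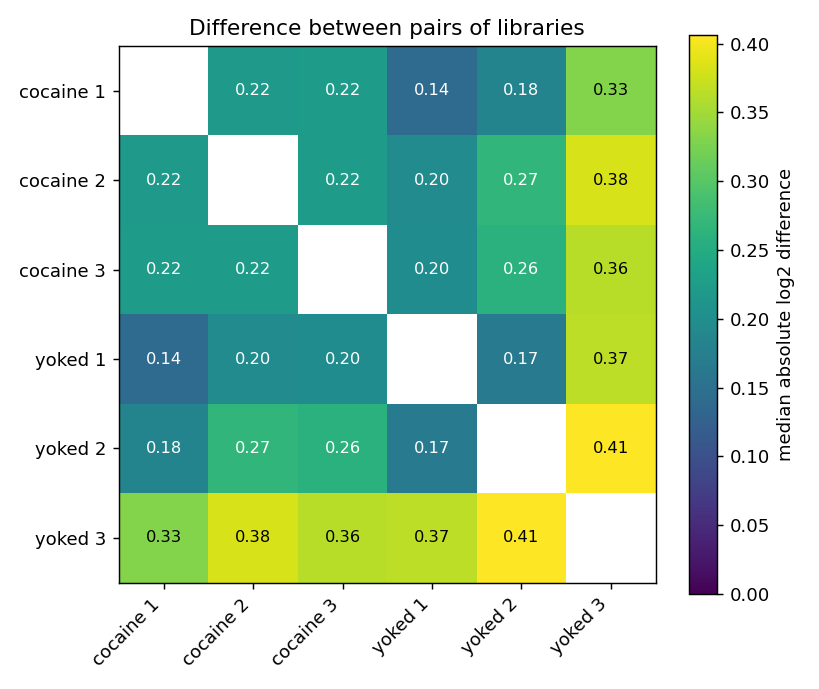
Median absolute log2 difference between each pair of the 6 libraries over genes averaging at least 50 counts (color scale and printed value). Cocaine 1 and yoked 1 are the closest pair at 0.14, and yoked 2 and yoked 3 the most distant at 0.41.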

How the data were processed

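Ribosome-bound RNA was measured by TRAP-seq in 9 pull-downs, and 1 input library was not used in tests. The authors deposited unnormalized counts, 1 whole number for each gene symbol and library. The submitters' processing notes name STAR 2.0.0e, HTSeq and mm10. The annotation is not given in the sources used here, nor is the strand setting, so reads of overlapping genes on opposite strands cannot be told apart. Of each file, 32531 gene rows were kept and 6 rows naming no gene entered neither library sizes nor tests. Of uniquely aligned reads, 12.3% to 16.1% fell in no feature in the cocaine and yoked libraries.

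Counts of all 9 pull-downs, which share one estimate of spread, were fitted with edgeR 4.0.16 in R 4.3.3 (TMM, filterByExpr, robust quasi-likelihood test, group as the only term), with Benjamini-Hochberg adjustment over 14680 genes. The fit was tested on simulated data with known changes, whose direction and size it recovered while missing many of the smaller ones. The simulation gave all genes the same dispersion and no deviations shared between libraries, so it does not show how the fit handles these in the data. The common biological coefficient of variation was 23.7%. Printed levels are TMM-scaled CPM. List scores are means of log2 CPM with a prior count of 2, and libraries were compared over 12104 genes averaging at least 50 counts. DESeq2 1.42.0 and limma 3.58.1 served as alternatives, with other size factors, no filter, fewer libraries, Rn45s left out and a replicate block. The members and the 39 gene lists (937 genes) were chosen with earlier results of these data known. Named genes were the 12 on each side with the smallest unadjusted p, separated groups and at least 50 counts on average, since fewer than 5 were called, leaving out clones, predicted and small RNA genes by their symbols. To these were added preset key members of each list, the highest and lowest member of each list, and the 6 genes with the largest spread within groups at a mean count of at least 200. The text names 75 of the genes the rule gives.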

Additional observations from a re-analysis of the deposited data

How the results depend on the processing

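The count of called genes was 0 under each alternative but one. With RLE size factors, DESeq2, limma-voom, no filter on low counts, Rn45s left out, the 6 cocaine and yoked libraries alone, or any of the 9 pull-downs left out in turn, 0 genes were called. With a replicate block over the 9 pull-downs 1 gene was called, Gh (log2 fold change 3.66, edgeR adjusted p = 0.0031), which was at 322 CPM in saline 1. With the block over the 6 libraries alone, an alternative chosen after seeing the data, 0 were called. The block changed no other call. The labels state no pairing by number, and the main fit had group as the only term. Deviations of same-numbered cocaine and yoked libraries from their group means correlated at -0.06, 0.14 and 0.27. Of the yoked libraries, cocaine 1 correlated best with yoked 2 (0.21). With same-numbered saline libraries the correlations were 0.027, 0.29 and 0.34 for cocaine 1, 2 and 3 and 0.093, 0.28 and 0.30 for yoked 1, 2 and 3. Between numbers 2 and 3 of different groups they were -0.33 to -0.16. Deviations within a group of 3 sum to 0 for each gene, so these values are not independent of the same-numbered ones. By the same-numbered correlations, libraries numbered 2, and those numbered 3, deviated in part alike across the groups. The source of this was not tested. Summed astrocyte markers were lowest in library 3 of each group, at 309.7 CPM in cocaine, 298 CPM in yoked and 285 CPM in saline libraries. They were highest in library 2 of the yoked group (1299 CPM) and of the saline group (754 CPM), but in library 1 of the cocaine group (567 CPM). With the block over 9 pull-downs the medians of some marker lists were nearer 0 and others farther from it. Nearer were those of astrocytes at -0.25 (-0.51 without the block), oligodendrocytes at -0.35 (-0.55) and their precursors at -0.36 (-0.75). So were those of ependyma at -0.05 (-0.19), interneurons at -0.37 (-0.68) and D2 neurons at -0.15 (-0.30). Farther were those of microglia at -0.58 (-0.50 without the block), vascular cells at -0.42 (-0.34) and blood at -0.56 (-0.51). The Rn45s difference of 1.31 percentage points was -0.00096 when all rows of the file were the denominator (exact permutation p = 1).

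Of 39 list medians, 13 kept their sign in every alternative and 26 changed it in at least 1. Medians moved beyond the spread of the list between replicates for actin genes (0.0069 with limma-voom, 0.013 with the block over 6 libraries) and matrix genes (-0.15 and -0.14). Leaving out single libraries gave ranges of -0.045 to 0.34 for activity-regulated genes, -0.24 to -0.0086 for peptide receptors, -0.20 to -0.015 for GABA, -0.046 to 0.029 for actin, -0.18 to 0.016 for chaperone, -0.085 to 0.011 for glycolysis and citrate cycle, -0.18 to -0.053 for cocaine-linked, -0.16 to 0.012 for striosome, -0.24 to -0.093 for matrix, -0.72 to 0.45 for vascular, -1.11 to 0.085 for interneuron and -0.27 to 4.84 for pituitary genes.

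Of the 75 genes named in the text, 44 kept the sign of their log2 fold change in every alternative, among them the 24 chosen for separated groups, where the choice favours a stable sign, and 31 changed it when a library was left out. Their ranges over the left-out libraries were -1.55 to 0.39 for AA465934, -0.20 to 0.030 for Adcy5, -0.71 to 0.53 for Adora2a, -0.16 to 0.96 for Arc, -0.074 to 0.037 for Atp5b, -0.29 to 0.73 for Cck, -0.099 to 0.22 for Ciart, -0.25 to 0.13 for Drd1, -0.85 to 0.20 for Drd2, -0.20 to 0.20 for Eef2, -0.15 to 0.46 for Egr1, -0.083 to 0.066 for Egr3, -0.10 to 0.11 for Fkbp5, -0.40 to 0.93 for Fos, -0.28 to 0.050 for Fosb and -1.24 to 8.13 for Gh. For the others they were -0.20 to 0.064 for Gnal, -0.017 to 0.74 for Junb, -1.24 to 0.057 for Mag, -0.48 to 0.013 for Ndufs1, -0.29 to 1.03 for Nr4a1, -0.56 to 0.89 for Nr4a2, -1.18 to 0.23 for Nrn1, -1.50 to 0.31 for Olig1, -0.45 to 0.11 for Oprk1, -0.080 to 0.23 for Pdyn, -0.10 to 0.10 for Rgs9, -0.42 to 0.42 for Slc17a7, -0.34 to 0.34 for Tac1, -0.23 to 0.53 for Tbr1 and -0.84 to 0.77 for Ttyh2. Other settings also changed the sign of Adora2a (0.026 with limma-voom, 0.065 with the replicate block, 0.016 with the block over 6 libraries), of Nr4a2 (1.1e-04 without Rn45s, 0.98 with limma-voom, 0.55 with the block, 0.76 with the block over 6 libraries), of Ttyh2 (0.033 with limma-voom) and of Eef2 (-0.0074 with DESeq2 and with RLE size factors, -0.0059 without the filter). The cause of these changes was not tested. Lane and group are the same split, so no difference between groups within a lane exists.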
